A study of Mus musculus with 4 samples.

Results

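The genes described here are 9 members of the Notch pathway, namely the ligands Jag1, Jag2 and Dll1, the receptors Notch1, Notch2 and Notch3, and the transcriptional targets Hes1, Hey1 and Hey2, out of 21829 protein-coding genes. They were chosen by name for their place in the pathway, with earlier results of these data known. ATAC-seq, which marks open chromatin by transposase insertion, was run on surface ectoderm of E11.5 mouse facial prominences in 4 libraries. Of these, 2 came from control littermates without the Crect transgene (Tfap2a flox/+; Tfap2b flox/+), and 2 came from EDKO embryos (Crect; Tfap2a flox/flox; Tfap2b flox/flox), which lose AP-2α and AP-2β in the ectoderm. Crect is a Cre transgene active throughout the early embryonic ectoderm, and each library held ectoderm of the whole face, so neither list separates oral from facial skin ectoderm or one prominence from another. The third AP-2 gene of this tissue, Tfap2c, was not targeted in either group, and both groups carry floxed alleles.

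Each peak was assigned to a member when its centre lay within 100 kb of the member's start site. This gave 136 of 65467 control peaks and 5 of 3103 AP-2-dependent regions, and no peak fell to more than 1 member. Control peaks were called on both control libraries together. AP-2-dependent regions were called on the control libraries with the EDKO libraries as background, and so were more accessible in control than in EDKO ectoderm. The libraries were combined in each call, so a peak has 1 value and no error between replicates, no test between embryos is possible, and the read depth behind a peak is not known. The value given for a peak is the −log10 p at its summit, unadjusted for the number of positions, or its area under the curve, the −log10 p above a threshold summed along the peak. The intervals of shares are 95% Wilson intervals and cover counting error only.

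Notch signalling passes between touching cells. A ligand of the Jagged or Delta family on 1 cell binds a Notch receptor on its neighbour, the receptor is cut by ADAM proteases and γ-secretase, and its freed intracellular part joins the DNA-binding protein RBPJ and a Mastermind protein to switch on genes of the Hes and Hey families. In the face the pathway is known above all for Jag2, whose loss in mice lets the palatal shelves fuse to the tongue and so leaves a cleft palate. As a check of the tissue, all 9 of 9 surface ectoderm markers (Krt5, Krt14, Krt8, Krt18, Cdh1, Epcam, Trp63, Esrp1 and Grhl2) had a control peak over the start site, with summits of 6.77 to 12.42. The same held for 3 of 5 mesenchyme and neural crest markers (Prrx1, Twist1 and Col1a2, 3.27 to 6.01, but not Pdgfra or Sox10). Of all protein-coding genes, 61.4% had such a peak, so the mesenchyme count is near the share of genes in general. Among 3 endothelial markers, Kdr had a start-site peak (9.01), and Cdh5 and Pecam1 had none. Their part in the results below was not tested.

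Of the 5 AP-2-dependent regions near a member, 4 are shown first, because such regions are the places in these windows that were called more accessible in control than in EDKO ectoderm. Each line gives the forward strand of mm10 over 300 bases around the summit. Capitals mark matches on either strand to the AP-2 consensus GCCNNNGGC or to an alternative AP-2 consensus, SCCYNRGGS (S is C or G, Y is C or T, R is A or G), and the 2 strings can match the same bases. Positions in kb are counted from the start site in the direction of transcription.
Notch1 −47.9 kb (chr2:26551574-26551873): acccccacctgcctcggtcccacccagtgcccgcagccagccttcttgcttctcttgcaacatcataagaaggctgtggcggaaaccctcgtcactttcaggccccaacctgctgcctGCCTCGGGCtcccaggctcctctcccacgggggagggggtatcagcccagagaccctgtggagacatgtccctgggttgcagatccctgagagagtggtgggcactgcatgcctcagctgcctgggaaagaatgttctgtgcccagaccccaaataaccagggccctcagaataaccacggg
Notch1 −50.3 kb (chr2:26553979-26554278): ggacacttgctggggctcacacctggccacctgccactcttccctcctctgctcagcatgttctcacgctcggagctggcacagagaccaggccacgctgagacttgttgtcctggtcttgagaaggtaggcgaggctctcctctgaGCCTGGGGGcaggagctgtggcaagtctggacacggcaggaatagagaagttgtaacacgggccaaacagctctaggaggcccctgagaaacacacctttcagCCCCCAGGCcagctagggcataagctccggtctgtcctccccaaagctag
Notch2 +40.2 kb (chr3:98053654-98053953): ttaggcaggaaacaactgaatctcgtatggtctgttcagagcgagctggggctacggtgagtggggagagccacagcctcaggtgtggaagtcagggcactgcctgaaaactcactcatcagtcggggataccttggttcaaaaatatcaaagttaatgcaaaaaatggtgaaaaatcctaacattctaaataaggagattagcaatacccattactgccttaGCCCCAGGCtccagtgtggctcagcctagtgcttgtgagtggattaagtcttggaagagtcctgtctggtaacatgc
Hes1 +69.0 kb (chr16:30134083-30134382): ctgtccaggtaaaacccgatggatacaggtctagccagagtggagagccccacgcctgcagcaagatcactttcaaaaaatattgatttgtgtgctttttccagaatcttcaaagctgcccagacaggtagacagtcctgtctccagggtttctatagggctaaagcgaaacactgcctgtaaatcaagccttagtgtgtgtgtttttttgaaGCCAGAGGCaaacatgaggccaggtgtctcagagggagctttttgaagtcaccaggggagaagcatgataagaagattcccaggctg

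The 250 bases before the start site are shown for Hes1 and Hey2, which with Hey1 are the members with a match to the RBPJ consensus TGGGAA there. The sequences run in the direction of transcription, and capitals mark TGGGAA or its reverse complement. Hes1 held 2 matches, beginning at −80 and −66 bp, both in the same orientation. Hey1 held 1, and Hey2 held 1 at −189 bp.
Hes1 upstream (chr16:30065090-30065339, + strand): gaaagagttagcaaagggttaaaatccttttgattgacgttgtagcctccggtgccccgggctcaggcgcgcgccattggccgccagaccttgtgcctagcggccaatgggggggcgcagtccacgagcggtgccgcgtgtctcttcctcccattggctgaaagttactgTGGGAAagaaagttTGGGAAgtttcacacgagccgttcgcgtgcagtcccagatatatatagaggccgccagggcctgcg
Hey2 upstream (chr10:30842802-30843051, − strand): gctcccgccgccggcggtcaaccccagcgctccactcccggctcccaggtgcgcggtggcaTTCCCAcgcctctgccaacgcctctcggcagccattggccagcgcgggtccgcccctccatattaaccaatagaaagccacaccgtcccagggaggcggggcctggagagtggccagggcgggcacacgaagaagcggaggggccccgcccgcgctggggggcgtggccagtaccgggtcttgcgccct

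The chromatin of all 9 genes was open in control ectoderm. Each member had a control peak over its start site (9 of 9, against 61.4% of all protein-coding genes), and 7 of 9 had more control peaks in the window than the median gene, which had 8 (quartiles 4.00 and 13.0). An AP-2-dependent region lay within 100 kb of 4 of the 9 members (Dll1, Notch1, Notch2 and Hes1), against 20.2% of all genes, and the windows held a mean of 0.556 regions for the members and 0.302 for all genes. Among the control peaks of the members, 5 of 136 (3.68%, 1.58 to 8.32) overlapped a region, against 4.48% of all control peaks, so the share lies near the background. By role, 1 of 39 ligand peaks, 3 of 54 receptor peaks and 1 of 43 target peaks held a region. No region was at a start-site peak (0 of 9). Genome-wide, 133 of 12324 control peaks over a start site (1.08%) and 2623 of 45644 control peaks more than 5 kb from any start site (5.75%) held one. For the members the distal count was 5 of 102 (4.90%). On either side of the 100 kb limit, the farthest region inside was that of Hes1 at +69.0 kb (summit 4.18), and the nearest outside it was at +115 kb from Jag2 (summit 5.52, area 510), closest to the start site of Clba1.

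**Figure D1:**
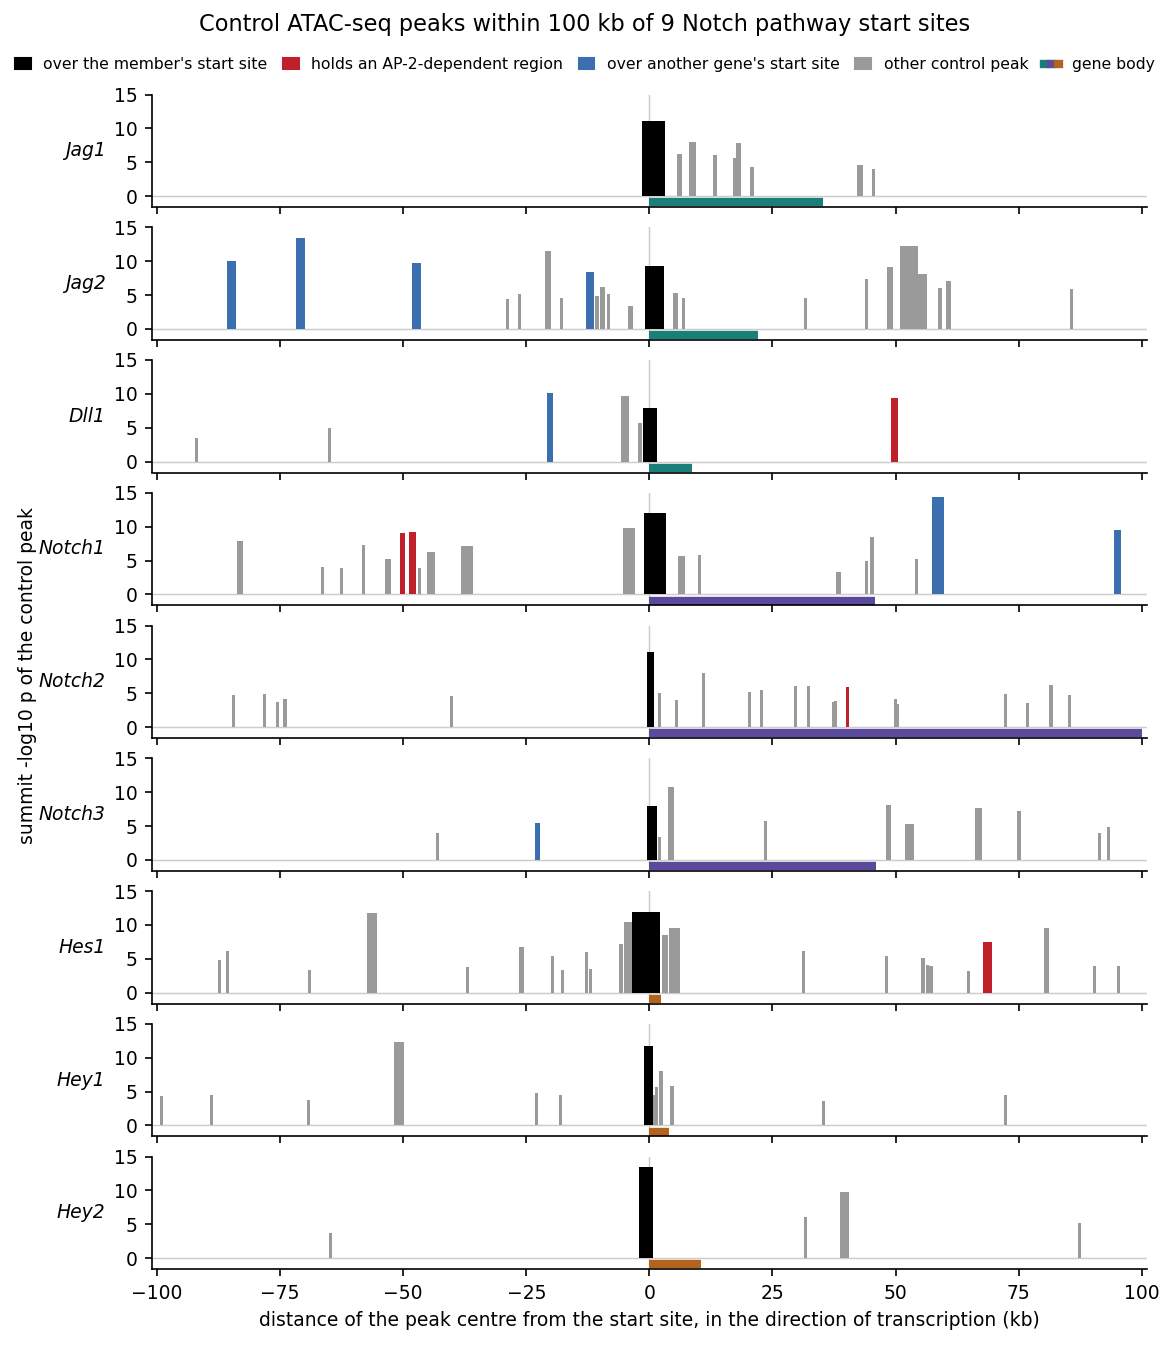
Control peaks within 100 kb of each member's start site, by distance in kb along the direction of transcription (x axis) and summit −log10 p (y axis), with bars drawn to the width of the peak (narrow ones widened to be seen) and the gene body beneath in the colour of its role. The 5 red peaks hold an AP-2-dependent region and lie 40.2 to 68.7 kb from the start sites of Dll1, Notch1, Notch2 and Hes1. None is at a start site or is the largest peak of its window.

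Among the ligands, Jag1, the ligand gene mutated in Alagille syndrome, had all of its 9 control peaks at or downstream of the start site. Its start-site peak (chr2:137113393-137118077) was 4685 bp wide, with a summit of 11.03 and an area of 16142, larger than at 99.0% of the 13396 genes with a start-site peak. The gene body held 6 peak summits, among them the largest other peak, in intron 2 at +8.75 kb (summit 7.95, area 3256). The next control peak upstream was outside the window, at −109 kb, and the nearest AP-2-dependent region was at −290 kb. The last 2 peaks, at +42.7 and +45.5 kb, lay beyond the gene's end, with summits of 4.54 and 4.04, and the second of these, in an exon of Slx4ip, is in repeated sequence (median of 2.0 genome places for its 31-base words).

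Jag2 had 23 control peaks, more than 94.7% of all genes, but 5 other coding genes start within its window (Gpr132, Nudt14, Btbd6, Brf1 and Pacs2) and only 5 of the 23 peaks had Jag2 as their nearest start site. The start-site peak (chr12:112926832-112930646) was 3815 bp wide with a summit of 9.22, lower than the median of 9.72 over all genes with one, while its area of 11459 was larger than at 96.0% of them. Its summit lay inside the gene, 1279 bp past the start site in intron 2. A larger peak stood at +52.7 kb between Jag2 and Gpr132 (chr12:112875301-112878918, 3618 bp, summit 12.24, area 11839), with control peaks on both sides of it at +48.8, +55.5, +59.0 and +60.8 kb. None of the 23 peaks held an AP-2-dependent region.

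Dll1, the Delta ligand best known from somite segmentation, had 7 control peaks, fewer than the median gene. Its start-site peak (chr17:15374456-15377165, 2710 bp) had a summit of 7.89, the lowest of the 9 members. The peaks at −4.92 kb (9.71) and at +49.8 kb (9.37) both had higher summits, as did the peak over the start site of the neighbour Fam120b (10.12). The peak at +49.8 kb (chr17:15325590-15326827) was the only one beyond the Dll1 gene on that side. It was also the one with an AP-2-dependent region, which had a summit of 4.80 and an area of 356 and filled 24.2% of the peak around the same summit (2 bp apart).

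Among the receptors, Notch1 had 20 control peaks and the only window with 2 AP-2-dependent regions. The start-site peak (chr2:26500397-26504853) was 4457 bp wide with a summit of 12.04 and an area of 14545, larger than at 98.4% of genes with one. The largest other peak, at +58.6 kb, covered the start site of Sec16a (summit 14.34, area 11780). Upstream, 9 control peaks stood between −37.0 and −66.4 kb in the interval between Notch1 and Egfl7. Both regions lay in this group, at −47.9 kb (chr2:26551506-26551873, summit 5.68, area 761) and −50.3 kb (chr2:26553979-26554310, summit 5.45, area 486). Their control peaks had summits of 9.20 and 9.08, the 2 highest of the 9. The start site nearest to both regions is that of Egfl7, an endothelial gene, at −29.4 and −26.9 kb, so by the nearest start site neither belongs to Notch1, and ATAC-seq does not say which gene either region acts on. Of the members' regions, these had the largest areas, above 79.5% and 62.2% of all regions.

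Notch2 differed from the other receptors in where its peaks lay. Of its 22 control peaks, 16 had their summit inside the gene, which is 137 kb long, and no other coding gene starts in the window. Notch2 thus spans the whole downstream side of the window. Notch1 and Notch3 are 45.9 and 46.0 kb long and held 6 and 3 summits. The difference is therefore partly built into the 100 kb rule. The start-site peak (chr3:98013018-98014383) was 1366 bp wide, the narrowest of the 9 members, with a summit of 11.04. The intronic peaks were weaker, the largest being in intron 1 at +11.0 kb (summit 8.06, area 1839), and the median summit of the window was 4.78. The single AP-2-dependent region was in intron 2 at +40.2 kb (chr3:98053533-98053953). With a summit of 3.22, higher than only 0.999% of all regions, and an area of 221, higher than 7.86%, it was among the weakest regions of the whole list. It filled 66.1% of a control peak with a summit of 5.92.

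Notch3, known from vascular smooth muscle and the CADASIL arteriopathy, had 12 control peaks and no region nearer than +419 kb. Its start-site peak (chr17:32165237-32167345) had a summit of 8.0 and the smallest area of the 9 members, 4781. The intron 2 peak at +4.39 kb was higher and larger (chr17:32161888-32163045, summit 10.81, area 5856). Notch3 and Jag2 were thus the 2 members whose start-site peak was not the largest of the window.

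Among the targets, Hes1, a basic helix-loop-helix repressor, had the most control peaks of any member (25, more than 96.6% of all genes), with no other coding gene in the window. Among the 2916 genes that are alone in their window, whose median was 4.00 peaks, 99.2% had fewer than Hes1 and 98.6% fewer than Notch2. The start-site peak of Hes1 (chr16:30061886-30067512) was 5627 bp wide, the widest of the 9, and reached from 3454 bp before the start site to 2172 bp into the gene, which is 2.46 kb long. Its area of 20218 was larger than at 99.6% of genes with a start-site peak, and its summit of 11.86 was higher than at 78.5%. Control peaks at −4.37 kb (10.49), +3.23 kb (8.44) and +5.14 kb (9.59) flanked it, and a remote peak at −56.3 kb had a summit of 11.72. None of these held an AP-2-dependent region. The one region was at +69.0 kb (chr16:30134065-30134522, summit 4.18, area 357), inside a control peak of 1718 bp with a summit of 7.51, where the summits of both lists fell on the same base.

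Hey1 and Hey2, repressors related to Hes1 and known from heart and vessel development, had open start sites and no AP-2-dependent region for a long distance, with the nearest at −901 kb and −691 kb. Hey1 had 13 control peaks, of which the start-site peak (chr3:8666515-8668343, summit 11.71, area 9032) and a peak at −50.8 kb (chr3:8717083-8719113, summit 12.30, area 6974) were far stronger than the other 11, whose summits were at most 8.08. Hey2 had 5 control peaks, the fewest of the members, although its start-site peak (chr10:30842014-30844906) had the highest summit of the 9, 13.48, above 93.7% of genes with one. The next largest peak was at +39.7 kb (summit 9.71, area 4917). The only other upstream peak of Hey2, at −64.7 kb (summit 3.73), lay in repeated sequence, with a median of 386.0 places in the genome for its 31-base words.

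The start-site peaks of 8 of the 9 members ranked higher by area than by summit among all genes with one, the exception being Hey2. All 9 had an area above the median of 4315 for genes with a start-site peak, and 8 were wider than the median of 1412 bp, the exception being Notch2. For the summit, 6 were above the median of 9.72 and 3 below it (Dll1, Notch3 and Jag2). Because the lists hold no value per library, neighbours in the order of summits, such as Dll1 (7.89) and Notch3 (8.0), or Jag1 (11.03) and Notch2 (11.04), cannot be said to differ.

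**Figure D2:**
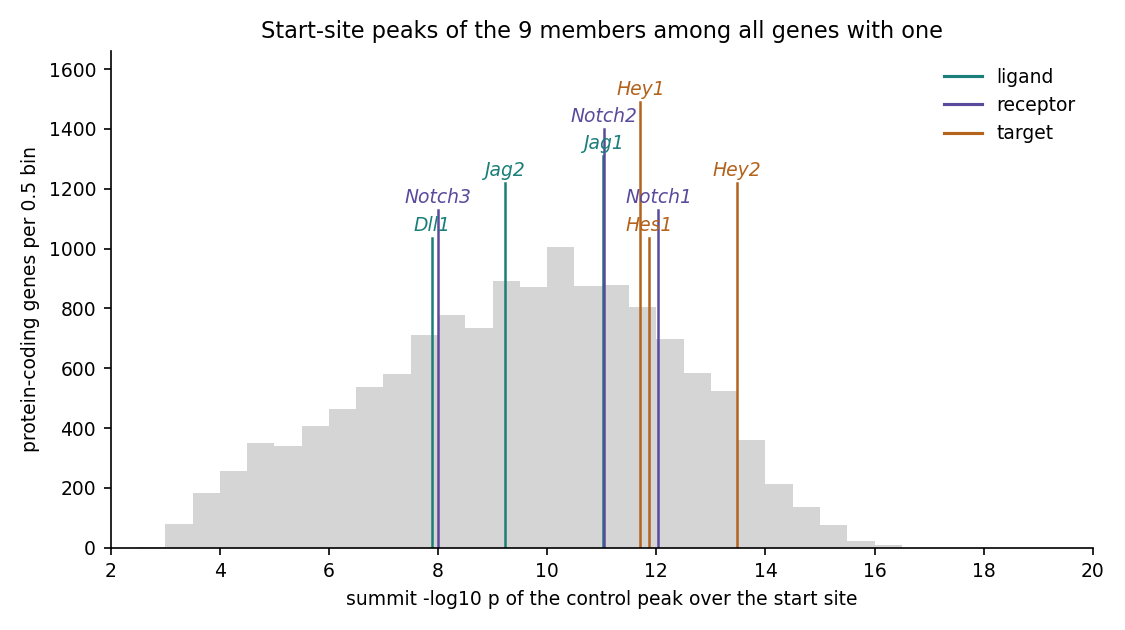
Summit −log10 p of the control peak over the start site (x axis, bins of 0.5, drawn to 20). Grey bars give the number of genes (y axis) among the 13396 protein-coding genes with one, and those with higher summits are not drawn. A line for each member is coloured by role. The members run from Dll1 at 7.89 to Hey2 at 13.48, with Dll1, Notch3 and Jag2 left of the median of 9.72.

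**Figure D3:**
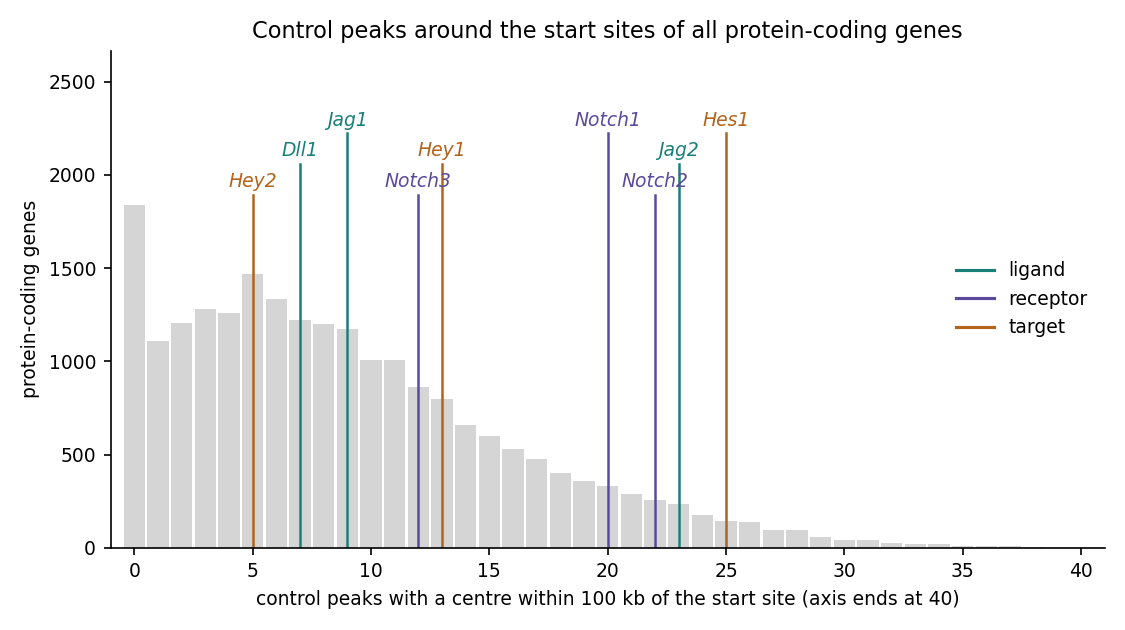
Number of control peaks with a centre within 100 kb of the start site (x axis, drawn to 40) for all 21829 protein-coding genes (grey bars, number of genes on the y axis), with a line for each member coloured by role. Hes1 with 25, Jag2 with 23, Notch2 with 22 and Notch1 with 20 sit on the right flank, while Hey2 with 5 and Dll1 with 7 sit below the median of 8.

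All 5 regions lay wholly inside a control peak, as did all 3103 regions of the list. Of the 5, 4 were between genes and 1 was in an intron, 40.2 to 69.0 kb from the member's start site, a distance that the 100 kb rule limits. Their control peaks had summits of 5.92, 7.51, 9.08, 9.20 and 9.37, with a median of 9.08. The 131 control peaks of the members without a region had a median of 5.45. The same order was seen over all control peaks, with medians of 6.92 for the 2932 with a region and 5.02 for the 62535 without. Both lists were called on the same control libraries, so the nesting and this order are partly built into the calls and are not separate results. In none of the 4 windows was the peak with the region the strongest: by summit it ranked 3rd of 7 at Dll1, 5th and 6th of 20 at Notch1, 6th of 22 at Notch2 and 7th of 25 at Hes1. Except at Notch2, the region took up 24.2 to 32.2% of its control peak. Their areas were 221, 356, 357, 486 and 761 against a median of 395 over all regions, and their summits were 3.22 to 5.68 against a median of 4.40, with Notch2 the lowest in both. All 5 are single-copy sequence, with a median of 1.0 places for their 31-base words.

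Of the 5 regions, 3 held the string GCCNNNGGC (60.0%, 23.1 to 88.2), against 29.7% of the 3072 regions on chromosomes. The 3 matches lay −72 bp from the summit in the Notch1 −47.9 kb region, +48 bp at Notch2 and +67 bp at Hes1. The other 2 regions held the alternative SCCYNRGGS instead, with 2 matches in the Dll1 region and 2 at Notch1 −50.3 kb, at +68 and +171 bp. With this string the count was 4 of 5, against 58.7% of all regions. A match to TGGGAA was present in 3 of 5 regions, against 31.1% of all regions, and the TEAD string GGAATG in 1 of 5, against 30.8%. With 5 regions the interval for the AP-2 consensus includes the background. A match is a description of the letters and not evidence of binding.

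**Figure D4:**
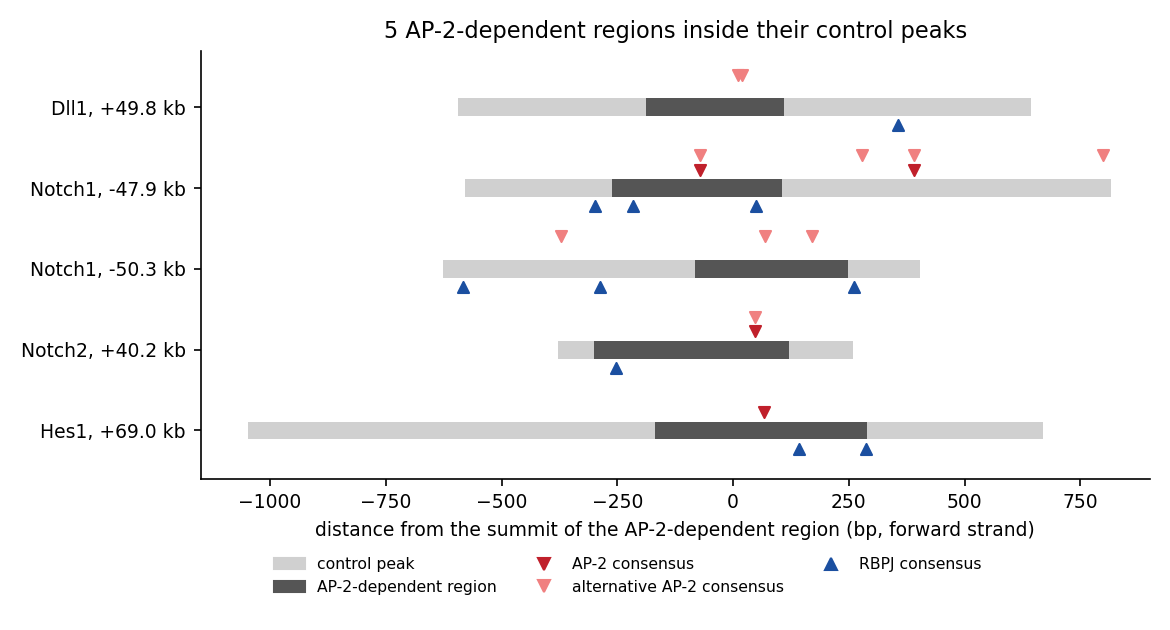
The 5 AP-2-dependent regions (dark bars) drawn to scale inside their control peaks (light bars), by distance in bp from the region's summit on the forward strand (x axis), with matches to the AP-2 consensus and its alternative above and to the RBPJ consensus below. Every region is inside its control peak, that of Notch2 fills 66.1% of it, and each has an AP-2 match of 1 kind or the other within 72 bp of its summit.

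Around the summits of the 136 control peaks of the members, RBPJ letters were more common than around summits in general. In windows reaching 100 bp either side of the summit, TGGGAA was found in 38 of 136 (27.9%, 21.1 to 36.0), against 16.4% of all 65298 control peaks on chromosomes. Among peaks more than 5 kb from any start site the members' share was 31 of 102 (30.4%, 22.3 to 39.9), against 16.9%. Windows of the same size placed 1 kb away on the forward strand held it in 16.2% for the members and 18.4% for all peaks. Limiting the count to the 87 peaks whose nearest start site is the member's gave 26.4% (18.3 to 36.6). Every member had at least 1 peak with TGGGAA within 100 bp of its summit. These counts ran from 1 of 7 at Dll1 and 1 of 5 at Hey2 to 6 of 13 at Hey1 and 7 of 22 at Notch2. GC content was also higher at the members' peaks, with a median of 56.0% against 53.2%, and its part in the result was not tested.

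The AP-2 consensus showed a smaller difference at the same summits, in 29 of 136 windows (21.3%, 15.3 to 28.9) against 14.4% of all. In the windows 1 kb away it was found in 6.62% against 4.82%. Among peaks more than 5 kb from any start site it was at 18.6% of summits (12.3 to 27.3) against 12.3%. The alternative SCCYNRGGS was at 26.5% of the members' summits (19.8 to 34.5) against 20.3% of all. Among the peaks more than 5 kb from any start site this alternative was at 21.6% (14.7 to 30.5) against 20.6%. Little difference was left there for the alternative string, unlike for GCCNNNGGC. The part of GC content was not tested here either. The TEAD string was found in 14.0% against 17.9%. TGGGAA and GGAATG share the letters GGAA and can overlap in a longer run, which may be counted for both. In the 250 bases before the start site, 3 of 9 members held TGGGAA, against 21.9% of all genes. All 3 are the target genes, and the 6 ligand and receptor genes had none. The AP-2 consensus was found in the same 3 genes, with 2 matches in each, against 15.5% of all genes, but the alternative SCCYNRGGS was found in Notch2, Notch3 and Hes1 (3 of 9, against 16.8%) and not in Hey1 or Hey2. The set is too small for more than this count, and absence from the window says only that these letters are not in it.

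**Figure D5:**
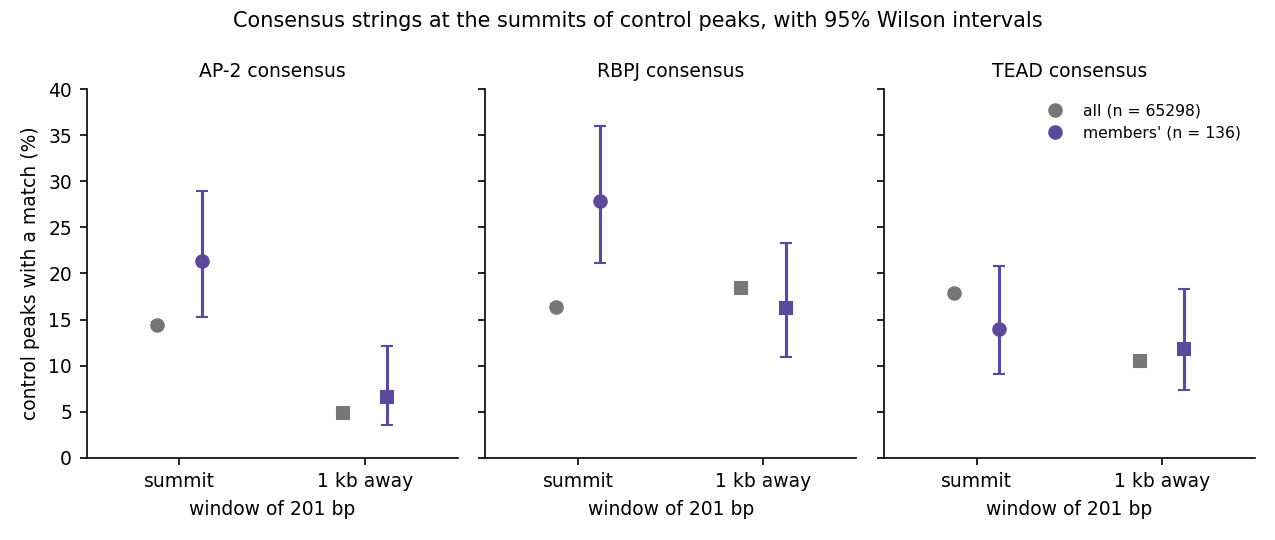
Share of control peaks with a match (y axis, %) to the AP-2, RBPJ and TEAD consensus in a window reaching 100 bp either side of the summit or of a point 1 kb away, for all control peaks (grey) and those of the 9 members (purple), with 95% Wilson intervals. At the summit the members' share with the RBPJ consensus is 27.9% against 16.4%, and 1 kb away it is 16.2% against 18.4%.

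Of 38 other Notch pathway genes, 33 had a control peak over the start site, and the median number of control peaks in the window was 12.0. An AP-2-dependent region lay within 100 kb of 9 of the 38 (23.7%, against 20.2% of all genes), with 13 regions in total. Among the 4 nuclear partners, Maml2 had 1 region at +16.9 kb (summit 5.08) and Maml3, another coactivator of the Mastermind family, had 2, at +58.6 and +60.2 kb (5.64 and 4.88), while Rbpj and Maml1 had none. Lfng, the fringe enzyme that adds sugar to Notch receptors, had 1 at +3.45 kb (4.91), and Mfng and Rfng had none. Fbxw7, a ubiquitin ligase subunit that turns over cleaved Notch, had 1 at +19.6 kb (4.89). The regions near Hes7 (−33.1 kb), Aph1a (−67.4 kb), Dtx3 (+2.85 kb) and Aph1b (4 regions, +51.1 to +97.4 kb) were closest to the start sites of Vamp2, Rprd2, Arhgef25 and Car12. None of the 3 further ligand genes of the list (Dll3, Dll4 and Dlk1) nor Notch4 had a region in the window.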

How the data were processed

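Open chromatin of E11.5 facial surface ectoderm was measured in 2 control and 2 EDKO libraries. The authors aligned reads to mm10 with bowtie2, keeping up to 10 places for a read, and called peaks with Genrich 0.5 on the combined libraries. The score that the authors deposited for each peak is 1000 times its area under the curve divided by its width, capped at 1000, and 108 of the members' 136 control peaks are at that cap, so it was not used. The area under the curve, a second deposited score, and the deposited −log10 p of the summit were used as they stand, within their own list. The summit offset from the peak's start, also deposited, gave the summit's position. The smallest area was 200 in both lists.

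Coordinates were counted from 1 on GRCm38. Start sites came from GENCODE mouse release 21, 1 for each protein-coding gene on 21 chromosomes (best APPRIS principal tag, then transcript support level, then length). Overlaps counted from 1 bp. Strings were searched on either strand. The nearest start site, intron and exon refer to these transcripts. Sequences were read from the reference, with Python 3.11.15, numpy 2.4.6, pandas 2.3.3, scipy 1.17.1 and matplotlib 3.10.9. The counting steps were tested on simulated data.

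The peaks named are each AP-2-dependent region within 100 kb of a member, the control peak over each member's start site and the largest in each window, and others were named after their values were seen. The members, the pathway and marker lists and the strings were chosen with earlier results of these data known. Regions more accessible in EDKO ectoderm, RNA and histone data were not analysed here. Some genes of the lists and 2 of the sequences are not reported here. A gene without a listed region is not shown to be unchanged. No p-value was computed, since peaks and genes are not replicates.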

Additional observations from a re-analysis of the deposited data

How the results depend on the processing

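Of 35 alternative values for the counts and shares of the members, 24 stayed near the reported value and 11 moved, with the cause set by the construction of each alternative. A window of 50 kb gave 84 control peaks and 3 AP-2-dependent regions, leaving out those of Hes1 and 1 at Notch1, and a window of 200 kb gave 242 and 9, with a region within the window for 5 members and 35.2% of all genes. Counting only peaks whose nearest start site is the member's left 87 control peaks and 3 regions, none of them at Notch1. An area of at least 500 in both lists left 1 region, Notch1 −47.9 kb, and 1 of 9 members with a region (against 7.90% of all genes), 1.02% of the members' control peaks with a region (against 2.46% of all) and the AP-2 consensus in 100% of that 1 region. This limit keeps 36.4% of all regions. An overlap filling at least 50% of both intervals left 0.735% (1 of 136, at Notch2), against 2.87% of all control peaks. With the 5′-most transcript, 8 of 9 start sites lay under a control peak, the exception being a Notch1 start site 12.8 kb further upstream. Leaving out repeated sequence removed 2 of 136 control peaks, at Jag1 and Hey2, and no region. No paired analysis was possible because the libraries of each call were combined by the authors and no value exists per replicate, and for the same reason no library could be left out.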
